A study of Arabidopsis thaliana with 30 samples.

Results

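The response of wild-type Arabidopsis thaliana leaves to 1 h of high light was described across all probe sets of the array. The arrays were chosen by their titles, Col0 and Col0_high light, and they were 6 of the 30 arrays of the series. Both groups held 3 arrays from plants of the reference accession Col-0, 21 days old and grown on soil; 1 group was untreated and the other received 1000 µE per square metre per second for 1 h. The other 24 arrays came from the lines Atwrky40 and Atwrky63, knockouts of WRKY transcription factors, and OE_WRKY40.4 and OE_WRKY63.3, their overexpressors, under the same conditions. They entered the fit, which estimated the spread of each probe set over all 10 groups, and they served as a second set of arrays for the same treatment. The Affymetrix ATH1 array reports 1 signal for each probe set, a group of short probes to 1 transcript, and the deposited signals were analysed as log2(signal + 1). Of 22746 probe sets that are not controls, 15922 were bright enough over the 30 arrays to be kept and 6824 were not. The labels do not say whether the 3 arrays of a group came from separate plants or pools, so each p-value measures the spread between these arrays only, which may be technical.

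Leaves given more light than photosynthesis can use form reactive oxygen species in the chloroplast and usually warm up. Known transcript responses include chaperones, which bind unfolded proteins, antioxidant enzymes, flavonoid synthesis, and lower expression of light-harvesting and growth genes. In bulk leaf RNA a change in a transcript can come from fewer cells of a type or from less RNA per cell, and these cannot be told apart.

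Arrays within a group correlated with r of 0.954 to 0.977 over the kept probe sets, and arrays of different groups with r of 0.823 to 0.852. The median signal was 169.3 to 180.8 on the untreated arrays and 147.7 to 157.3 after high light, although the authors had scaled all arrays to 1 mean. With controls left out the summed signals were not equal either, and went the other way. They were 16381531 to 16908660 untreated and 17140103 to 17266608 after high light. Actin control probe sets at the 3' and 5' ends, whose ratio reflects RNA quality, had log2 ratios of 1.45, 2.35 and 1.595 on the untreated arrays and 1.83, 1.72 and 1.79 after high light, so that untreated replicate 2 stood apart. The leaf markers LHCB4.1, LHCB4.2, LHCB4.3 and RCA had a summed signal of 74825 to 94967 untreated and 76241 to 86177 after high light. The 3 kept root markers, of 5 named, summed to 513 to 883 and 199.7 to 404, and the 1 kept flower and seed marker, OLEO3, to 47.7 to 53.1 and 43.1 to 60.5. Their part in any change was not tested.

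High light moved a large share of the leaf transcriptome, mostly by small steps. Limma called 2379 probe sets higher, 14.9% of those tested, and 4616 lower, 29% of those tested, at an adjusted p under 0.05 (43.9% in all). Of these calls 4136 were smaller than 2-fold. At least 2-fold were 1216 rises (7.64%) and 1643 falls (10.3%), whereas at least 4-fold were 477 rises and 311 falls, at least 16-fold 93 and 13, and at least 64-fold 41 and 0. The falls were thus more numerous and the rises larger. The median log2 change of all kept probe sets was -0.18, with 10th and 90th percentiles of -1.05 and 0.82. Rises made up 34.0% of all calls on the deposited scale, 42.8% with quantile normalization and 48.6% with each array centred on its median, so how far falls outnumber rises depends on the scaling. These scalings put the median of all probe sets at -0.082 and -0.029, and the gene lists below are read against the median of -0.18 on the deposited scale. All these lists were chosen with earlier results of these data known, so their counts and medians do not describe the families in general.

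The number of calls depended on how bright a probe set was. In the dimmest decile of probe sets, ranked by mean log2 signal over the 6 arrays, 6.09% of probe sets were called higher and 15.6% lower, with a median standard error (SE) of 0.43 on the log2 scale. In the decile just below the brightest the shares were 22.4% and 32.1%, and in the brightest decile 20.4% and 25.99%, with a median SE of 0.13. The brightest decile also held more rises than falls of at least 2-fold, 169 against 91, where the dimmest held 83 against 213. Among all probe sets called higher, 125 had an untreated mean below 46.7, the signal at the filter, and 241 of those called lower had a high light mean below it. These passed the filter through the arrays on which they were bright and so had to differ. AT1G52560, UGT84A1, CML37, GSTU28, BZIP61, UGT76C2, CYP71B23, UBP21 and ZCF37, given below, are among them.

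**Figure D1:**
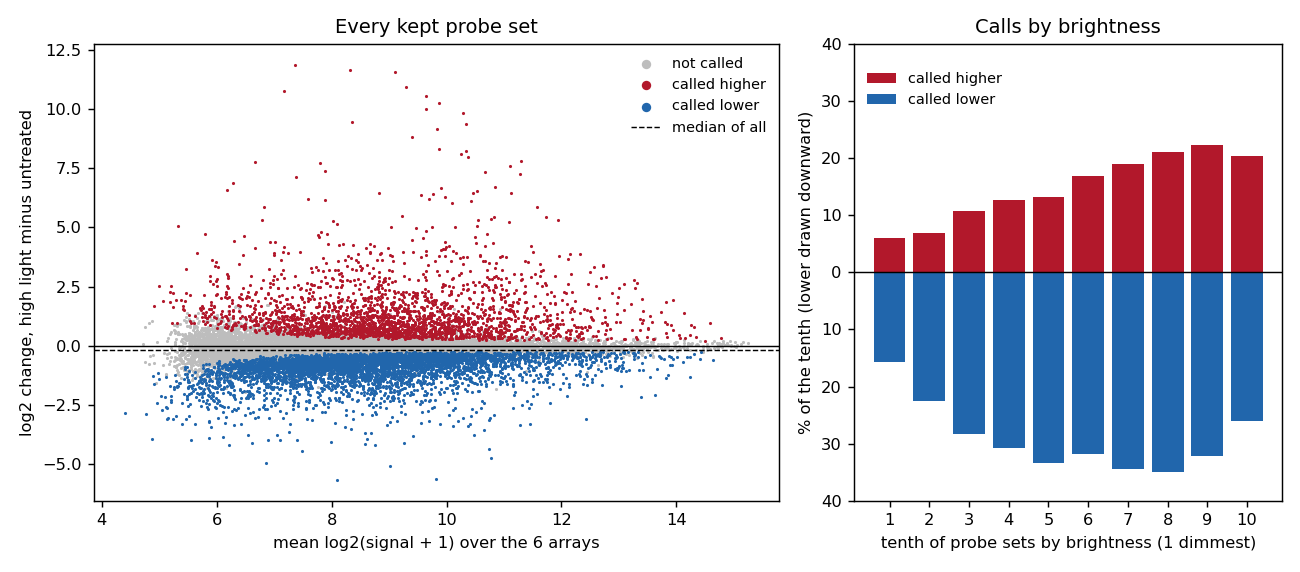
The left panel plots the log2 change after high light against the mean log2(signal + 1) of the 6 Col-0 arrays for 15922 probe sets, coloured by the call; the dashed line is the median change of -0.18. The right panel gives the percentage called higher (upward) and lower (downward) in each decile by brightness, from 6.09% and 15.6% in the dimmest to 20.4% and 25.99% in the brightest.

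Among probe sets of the brightest decile that name 1 gene, the largest rises were mostly tight between arrays. AT5G48570, an FKBP-type peptidyl-prolyl isomerase of the heat response, had signals of 205, 229 and 172 on the untreated arrays and 31522, 30151 and 30015 after high light, a log2 change of 7.24 ± 0.15 (limma adjusted p = 4.17e-22). AT5G12110, a beta subunit of translation elongation factor 1, went from 769, 412 and 432 to 22967, 22953 and 21352 (5.44 ± 0.24, adjusted p = 1.33e-15). In both, every high light array lay above every untreated array, but only genes with such a separation were ranked. Of all kept probe sets 17.3% lay wholly above, by any margin, and 33.6% wholly below. AT1G54050, of the HSP20 family of small chaperones, read 705, 768 and 435 untreated and 25192, 24577 and 24648 treated (5.33 ± 0.19), and AT2G19310 of the same family 1326, 1278 and 965 and 18197, 16748 and 17488 (3.89 ± 0.12). AT3G12050, which holds the Aha1 domain of proteins that activate the chaperone HSP90, rose from 1215, 1345 and 1183 to 13962, 18130.0 and 15528 (3.66 ± 0.15). Chaperones were thus 4 of the 10 largest rises in the brightest decile, by a ranking of called, non-overlapping probe sets with a single gene name; 6831 of the 15922 kept probe sets are unnamed and did not enter it.

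The other 6 were AT5G12110 and 5 genes of other kinds. AT1G67360, a lipid droplet protein of the rubber elongation factor family, stood at 721, 662 and 604 untreated and 13153, 11453 and 11853 after high light (4.20 ± 0.22, adjusted p = 2.14e-14). The cytochrome c gene CYTC-2 stood at 779.9, 1373 and 817 and 9629.8, 10661 and 10929.5 (3.44 ± 0.19), untreated replicate 2 being the highest of its group. AT3G56290 (3.97 ± 0.23), AT3G07090 (3.55 ± 0.20) and AT3G17800 (3.39 ± 0.22) also rose. Their treated arrays all lay above the untreated ones, as the ranking required. AT3G17800 read 2459.8, 2467 and 1480.4 without and 22565, 23107 and 19901 with treatment.

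**Figure D2:**
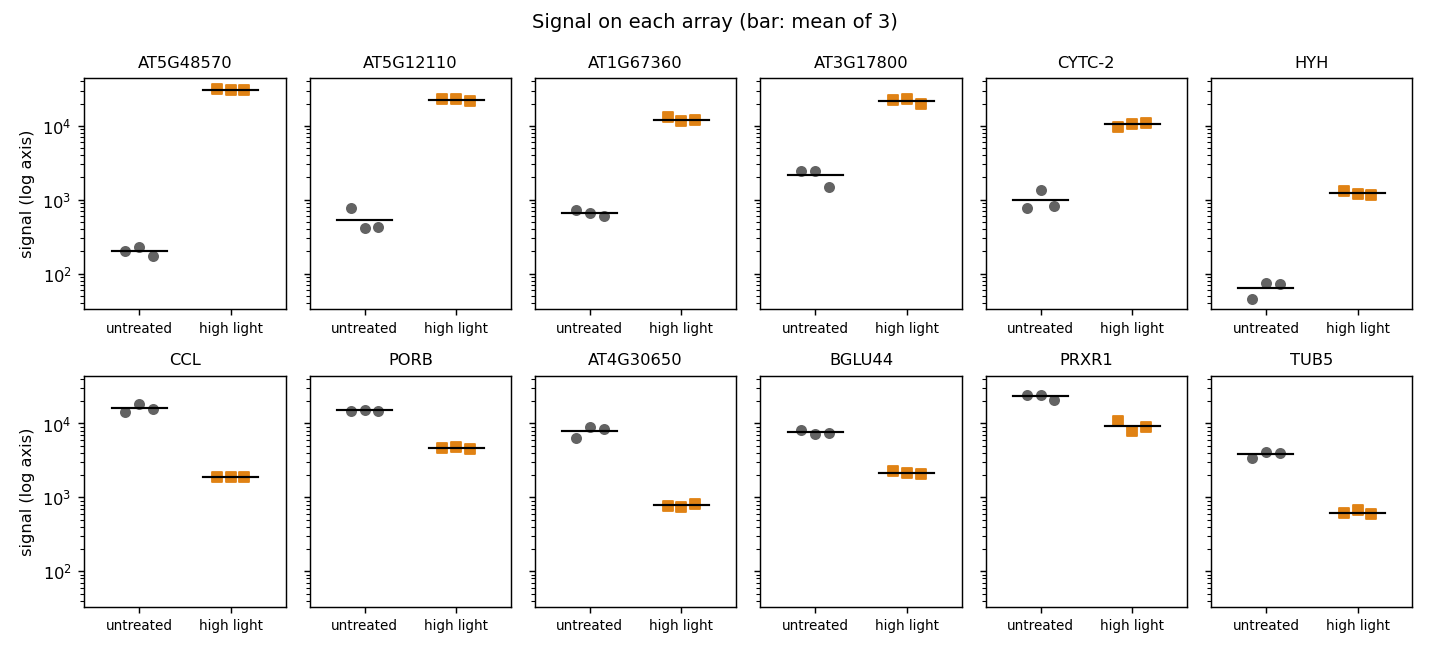
Signals of 12 genes on each of the 6 arrays, on a log axis shared by all panels and to be read within a panel; circles are untreated, squares high light, and the bar is the mean of 3. The top row holds rises, such as AT5G48570 with a log2 change of 7.24, and the bottom row falls, such as CCL with -3.08. In every panel the groups do not overlap, which the rule that named these genes required.

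The protein folding genes rose in families whose members did not move alike. Of the 9 small heat shock proteins in the list, all kept, 7 rose and 0 fell, against 14.9% and 29% of all probe sets. Their median log2 change was 8.30. The 2 that were not called were AT5G47600 (0.83 ± 0.59, adjusted p = 0.264) and AT4G21870 (0.38 ± 0.43), whose signals of 391, 514 and 333 untreated and 380.4, 620.2 and 625 treated overlapped. AT5G37670, another member, went from 169, 182 and 108 to 13995, 12675 and 12482 (6.44 ± 0.20). Together these 9 took 0.00698% to 0.00957% of the summed signal of an untreated array and 0.853% to 0.936% after high light. The list does not hold every gene of the HSP20 family, and AT2G19310, given above, lies outside it. The untreated levels of AT1G52560, the largest rise in the list, were 0.858, 1.11 and 3.91 and the treated ones 8571, 11543 and 10295. Its log2 change of 11.87 was 9.14 with a pseudocount of 16 in place of 1, since the size of a fold from so dim a signal depends on the pseudocount.

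Among HSP70-type chaperones and chaperonins 5 of 6 rose (83.3%, against 14.9% of all probe sets), with a median of 2.06. AT3G09440, a cytosolic HSP70, went from 2039, 3348 and 2443 to 18322, 19649 and 19256 (2.90 ± 0.14) and Hsp70-2 from 337, 453 and 401 to 2645, 2465 and 2152 (2.61 ± 0.21). The plastid chaperonin gene Cpn60beta2 went from 4283, 3959.7 and 3974 to 24201, 27227 and 24273 (2.63 ± 0.13), while Cpn60beta4 was not called (-0.15). All treated arrays of the 3 called genes were above the untreated ones, as the rule for named genes required.

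Co-chaperones, which hand substrates to HSP70 and HSP90, had 16 of 23 kept probe sets (25 named) higher and 2 lower, against 14.9% and 29% of all probe sets. Hop3 is the largest of these rises and belongs to a family of adaptors between HSP70 and HSP90. Its relative Hop2 had signals of 992, 1201 and 761 untreated and 3757, 3800.0 and 4661 treated (2.06 ± 0.20), and Hop1 was not called (-0.16 ± 0.13, adjusted p = 0.355). In the Fes1 family, whose members release nucleotide from HSP70 in yeast, Fes1A rose from 229, 331 and 270.1 to 10618, 13773 and 9805 (5.36 ± 0.17, adjusted p = 1.59e-18). Fes1B fell from 938, 755 and 1078 to 139.9, 239 and 209 (-2.25 ± 0.18) and Fes1C from 449, 417 and 440.4 to 199, 190.5 and 208 (-1.13 ± 0.13). The family thus split in direction. The groups did not overlap for any of the 3, which the rule for named genes required of Fes1B. HSA32, needed in Arabidopsis for long-lasting heat tolerance, varied between arrays, at 79.2, 110.2 and 96.9 untreated and 5348, 11614 and 14517 treated (6.66 ± 0.27). J-domain proteins, which start the HSP70 cycle, included AT1G71000 (7.38 ± 0.74) and AT2G20560 (6.41 ± 0.26), and the endoplasmic reticulum member ATERDJ3B rose by 2.20 ± 0.11. Hop1, Hop2, Fes1A, Fes1C and ATERDJ3B lie outside the rule for named genes and were added after their values were seen.

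**Figure D3:**
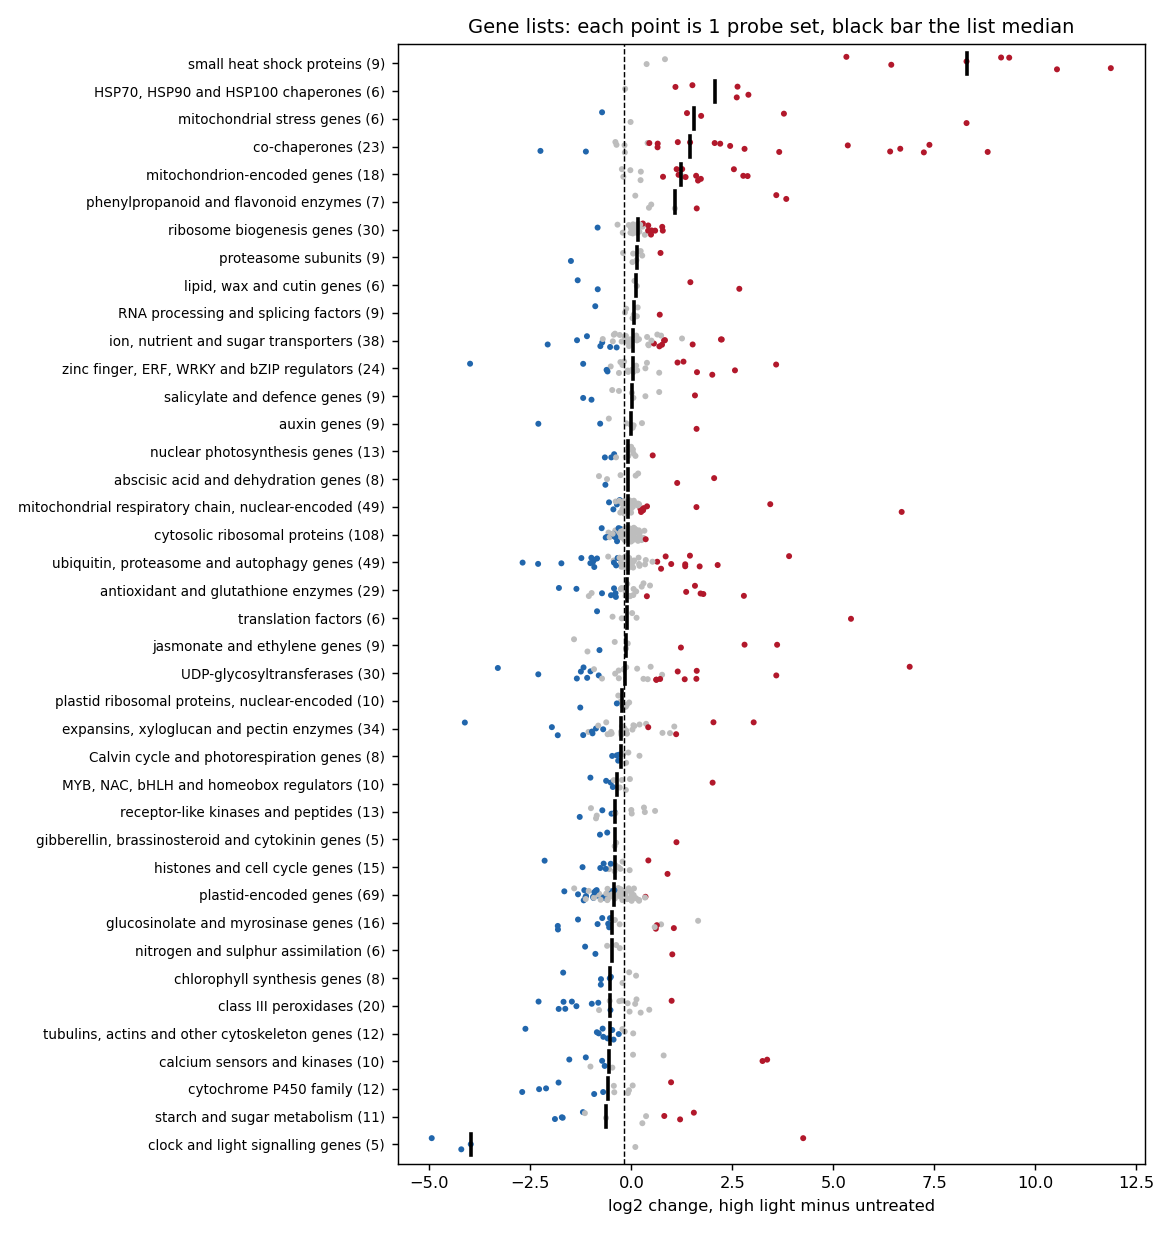
Log2 change of each kept probe set in the gene lists with 5 or more members, ordered by the list median (black bar) and coloured red where called higher, blue where called lower and grey where not called; the number kept is in brackets and the dashed line is the median of all probe sets, -0.18. Small heat shock proteins have a median of 8.30 and co-chaperones one of 1.45.

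Regulators of light, protein stress and hormone responses were among the genes that moved. HYH, a bZIP factor of the same light pathway as HY5, was at 45.9, 74.2 and 72.7 without treatment and 1319, 1188 and 1155 after it (4.26 ± 0.25, adjusted p = 2.98e-13). Of 5 clock and light signalling probe sets 1 rose (20%) and 3 fell (60%), against 14.9% and 29% of all probe sets, with a median of -3.98. The filter at the 50th percentile left 3, with 1 higher and 1 lower, and turned the median to 0.10. Like the other lists, this one was chosen with earlier results of these data known, so its median does not describe clock genes in general. AT1G07050, which carries the CCT domain of CONSTANS-like proteins, fell from 1643, 2348 and 1679 to 99.9, 85.6 and 116 (-4.21 ± 0.25), and the bZIP gene BZIP61 from 574, 369 and 493 to 17.1, 46.4 and 29.4 (-3.99 ± 0.35). Both were lower on every treated array, as the rule for named genes required. CCL, a transcript linked to the clock and to rapid RNA decay, fell from 14432, 18263 and 15474 to 1879, 1893 and 1874 (-3.08 ± 0.23), and GI, a core clock gene, was not called (0.10).

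Of 24 zinc finger, ERF, WRKY and bZIP regulators 6 rose (25%) and 4 fell (16.7%), against 14.9% and 29% of all probe sets, with a median of 0.03 that was -0.09 without untreated replicate 2 and -0.02 without high light replicate 3. With the filter at the 50th percentile 1 of 13 fell. BZIP60, the factor that is activated by RNA splicing when unfolded proteins build up in the endoplasmic reticulum, had 640.5, 1022 and 817 untreated and 4759.8, 4526 and 5177 treated (2.57 ± 0.18). BZIP28 and BZIP17, which are released from the membrane in the same response, went from 526, 498 and 314 to 1119, 1615 and 1344 (1.63 ± 0.19) and from 269.7, 261 and 275 to 560.1, 621 and 603 (1.14 ± 0.20). All 3 were above on every treated array, which the rule for named genes required of BZIP60. BZIP28 and BZIP17 were added after their values were seen. STZ, a zinc finger repressor of stress responses, was uneven, with 205, 572 and 865 untreated and 3494, 7583 and 6688 treated (3.59 ± 1.04, adjusted p = 0.00665). WRKY53, WRKY6 and WRKY22 were not called, with changes of 0.35, -0.31 and 0.69.

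In the jasmonate list 3 of 9 probe sets rose (33.3%) and 1 fell (11.1%), against 14.9% and 29% of all probe sets. The number of falls was 2 without untreated replicate 1 or 3. JMT, the enzyme that methylates jasmonate, went from 142, 175 and 97.3 to 1368, 1666 and 1971 (3.61 ± 0.33). ORA47, an ERF factor that activates jasmonate synthesis, had 132, 254 and 442 and 1525, 2242 and 1492 (2.80 ± 0.76, adjusted p = 0.00395). The defensins PDF1.2 and PDF1.2b, targets of the pathway, were not called (-1.42 and -1.09). Of 10 calcium sensors and kinases 2 rose (20%) and 4 fell (40%), where 14.9% and 29% of all probe sets did. CML38, a calmodulin-like protein, rose from 67.1, 201 and 100.3 to 753, 1383 and 1455 (3.36 ± 0.57) and CML37 from 17.2, 36.6 and 3.26 to 80.5, 182 and 167 (3.25 ± 0.74, adjusted p = 0.000806). CML42 fell from 415, 657 and 616 to 213, 190.0 and 168 (-1.54 ± 0.22). In the auxin list of 9 the largest rise was GH3.3, an enzyme that conjugates auxin, with 1.62 ± 0.32. IAA29, an auxin repressor, changed by -2.30 ± 0.75 (adjusted p = 0.0152), a call that ended without untreated replicate 3 (-1.98, adjusted p = 0.0687).

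Several enzymes that make and glycosylate phenylpropanoids rose. CHIL, which assists chalcone isomerase in flavonoid synthesis, had 213, 252 and 175 untreated and 3137, 2723 and 3263 treated (3.84 ± 0.31, adjusted p = 1.55e-10). UGT78D2, a flavonoid glucosyltransferase, went from 483, 534 and 370.3 to 5855, 5608 and 5110.1 (3.59 ± 0.21), and UGT78D1, a flavonol rhamnosyltransferase, from 1190.0, 1170.0 and 689 to 3371, 2787 and 2972 (1.62 ± 0.20). The groups were apart in all 3, which the rule for named genes required of CHIL and UGT78D2. UGT84A1, which glucosylates hydroxycinnamic acids, rose from 8.27, 3.94 and 6.88 to 926, 922 and 707 (6.89 ± 0.54, and 5.27 with a pseudocount of 16). The 7 probe sets of phenylpropanoid and flavonoid enzymes had 3 higher (42.9%) and 0 lower, against 14.9% and 29% of all probe sets. Their median was 1.08, and DFR, a later step towards anthocyanins, was not called (0.44).

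The UDP-glycosyltransferase family as a whole, which adds sugars to many small molecules, had 9 of 30 probe sets higher (30%) and 8 lower (26.7%), against 14.9% and 29% of all probe sets. The median of -0.15 turned to 0.04 with quantile normalization, to 0.01 without high light replicate 1, and to 0.48 with the filter at the 50th percentile, which left 19 with 9 higher and 5 lower. The UGT78D and UGT84A members had 4 of 5 higher. At the other end UGT76C2, which glucosylates cytokinins, fell from 122, 169 and 179 to 3.77, 12.8 and 58.1 (-3.31 ± 0.58, and -2.29 with a pseudocount of 16) and UGT72E1, which acts on monolignol aldehydes, from 579, 676 and 554 to 148, 88.2 and 136 (-2.30 ± 0.49). The treated arrays of UGT76C2 were widely spread but all below the untreated ones, as the rule for named genes required. UGT78D1 was added after its value was seen.

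Nuclear genes of the mitochondrial respiratory chain mostly stayed close to the median of all probe sets, with 3 clear exceptions. Of 49 probe sets 8 rose (16.3%) and 4 fell (8.16%), against 14.9% and 29% of all, with a median of -0.08 that was 0.07 with median-centred arrays; quantile normalization gave 4 and 8. The number higher was 5 without untreated replicate 1 or high light replicate 1 or 3, and 3 without untreated replicate 3 or high light replicate 2. AT5G25450, the 14 kDa subunit of complex III, had 143, 229 and 175 untreated and 17110.0, 20648 and 18407 treated (6.69 ± 0.15, adjusted p = 5.17e-22), while AT4G32470, annotated as the same subunit, was not called (0.16). CYTC-2 rose by 3.44, and CYTC-1, the other cytochrome c gene named, had 0.24 ± 0.09 (adjusted p = 0.0387). That call was lost with quantile normalization (0.14), with no filter, on only the arrays compared and without any 1 of the arrays except high light replicate 1 (0.19 to 0.24). SDH2-1, an iron-sulphur subunit of complex II, went from 1602, 1755 and 1302 to 3993, 5508 and 4768 (1.61 ± 0.13). Its copy SDH2-2 had 0.29 ± 0.11 (adjusted p = 0.0356), a call that ended on only the arrays compared and without untreated replicate 1 (0.23) or 3 (0.24) or high light replicate 1 (0.27) or 2 (0.29). In each of these pairs 1 gene carried the larger part of the rise. AT4G32470, CYTC-1 and SDH2-2 were named after their values were seen.

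Antioxidant enzymes were called about as often as other genes. Of 29 probe sets 6 rose (20.7%) and 7 fell (24.1%), where 14.9% and 29% of all probe sets did, with a median of -0.10 (0.05, with 8 and 3, on median-centred arrays). GR1, a glutathione reductase of the cytosol, went from 1114, 1074 and 873 to 2582, 2803 and 2436 (1.36 ± 0.14) and ATMDAR2, a monodehydroascorbate reductase, from 1187, 1664 and 965 to 3819.9, 4241 and 4171 (1.71 ± 0.22). The plastid glutathione reductase GR was not called (-0.10). GSTU28, a tau-class glutathione transferase, rose from 21.3, 51.0 and 66.7 to 398, 252 and 254 (2.79 ± 0.56) and GSTU27 of the same class fell from 1658, 1159 and 1475 to 457, 321 and 462 (-1.79 ± 0.15). GR1 was added after its value was seen.

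The 10 largest falls, ranked among the same probe sets of the brightest decile, were smaller than the 10 largest rises. AT4G30650 and AT4G30660, neighbouring members of a family of small membrane proteins induced by cold and salt, went from 6386, 8998 and 8514 to 773, 745 and 826 (-3.33 ± 0.21, adjusted p = 1.38e-12) and from 5070.2, 9092 and 4853 to 1519.9, 1212 and 1429 (-2.14 ± 0.19). AT5G03350, a legume lectin domain protein, was at 6045, 13479.9 and 8530.0 untreated, highest on replicate 2, and 791, 834 and 1065 treated (-3.32 ± 0.34). AT1G09750, an aspartyl protease, fell from 6784, 5362 and 6059 to 1238, 1158 and 1232 (-2.32 ± 0.19) and BGLU44, a beta-glucosidase, from 8118, 7287 and 7368 to 2274, 2134 and 2053 (-1.82 ± 0.14). The treated arrays were below every untreated array in each of these 5 genes, as the ranking required. AT3G22210 (-2.02 ± 0.16), the GDSL lipase AT3G16370 (-1.66 ± 0.18) and AT1G49750 (-1.60 ± 0.15) fell as well.

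Genes of chlorophyll synthesis fell where they were called. PORB, the light-dependent protochlorophyllide reductase, had signals of 14895, 15342 and 14871 untreated and 4599.7, 4838 and 4566 treated (-1.69 ± 0.14, adjusted p = 1.83e-10). CHLM, a methyltransferase of the magnesium branch, went from 9259, 9376 and 8471 to 5199, 5784 and 5124 (-0.75 ± 0.11). Both sets of arrays were tight, and the rule for named genes required that they not overlap. In all 5 of 8 fell (62.5%) and 0 rose, against 29% and 14.9% of all probe sets, with a median of -0.52, and 3 fell on median-centred arrays. The light-harvesting-like proteins LIL3:1 and LIL3:2, which hold enzymes of the pathway at the membrane, fell by 0.53 and 0.70. Of 13 nuclear photosynthesis genes 1 rose and 3 fell (23.1%, against 29% of all probe sets) with a median of -0.08, which turned to 0.08 on median-centred arrays, and quantile normalization gave 6 falls. Of 8 Calvin cycle and photorespiration genes 0 rose and 4 fell (50%), against 14.9% and 29% of all probe sets. Their median was -0.25, and on median-centred arrays 1 rose and 1 fell. The number of falls was 2 without any 1 of the arrays. The phosphoribulokinase gene PRK changed by -0.47 ± 0.11. RCA, which activates Rubisco, was not called (0.20).

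Plastid-encoded probe sets had 16 of 69 lower (23.2%) and 1 higher (1.45%), against 29% and 14.9% of all probe sets, with a median of -0.43. The 19 probe sets of RNA polymerase subunits (rpo) and ribosomal proteins (rpl, rps) had 10 lower and a median of -0.69. The 33 of photosystem, cytochrome, ATP synthase and Rubisco genes had 5 lower and 1 higher and a median of -0.22, and the 10 ndh probe sets had 1 lower and a median of -0.54. These counts moved in both directions between settings. Of the 69, 32 were lower with the replicate block, 7 on median-centred arrays, 6 without untreated replicate 3 and 2 without high light replicate 2 (median -0.19). In the same settings the rpo and ribosomal protein probe sets had 15, 5, 3 and 1 lower, the photosystem group 8, 2, 3 and 1, and the ndh group 4, 0, 0 and 0. The photosystem group also had 2 lower without untreated replicate 2, and the ndh group 3 without high light replicate 1 and 0 without high light replicate 3.

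Mitochondrion-encoded probe sets had 11 of 18 higher (61.1%) and 0 lower, against 14.9% and 29% of all probe sets. They were taken by gene symbol alone, since none was matched to a locus in the gene table used. Their median was 1.22, and 10 of the rises were at least 2-fold. The signals of all 18 summed to 3919 to 4490 on an untreated array and 5809 to 6751 after high light. The filter at the 50th percentile left 6 of them, 2 higher and 0 lower, with a median of 0.11, so most of the rises were on dim probe sets. Leaving out 1 array gave 8 to 11 higher, with 8 in the absence of high light replicate 2. No test compared them with the plastid-encoded probe sets.

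Genes of cytosolic ribosomal proteins covered a narrow range. The 108 kept probe sets of cytosolic ribosomal proteins changed by -0.73 to 0.36 on the log2 scale, against 10th and 90th percentiles of -1.05 and 0.82 over all probe sets. They had 1 rise (0.926%) and 14 falls (13%), against 14.9% and 29% of all probe sets, and a median of -0.08, which was 0.07, with 9 rises and 5 falls, on median-centred arrays, and 0 and 23 with quantile normalization. The number of falls was 8 without high light replicate 1 or 2. The ribosomal proteins AT1G52300 (RPL37) and AT3G60245 (RPL37a) were among the 6 genes of the brightest decile closest to the median of all. AT1G52300 had 14646, 14501 and 12626 untreated and 11409, 11922 and 13801 treated (-0.17 ± 0.09), and AT3G60245 had 13488, 13532 and 14668 and 12564, 12022 and 12492 (-0.17 ± 0.08), neither of them called. The other 4 were AT3G12290, AT3G27770, AT4G22310 and AT2G43030, a plastid ribosomal protein. The nuclear-encoded plastid ribosomal proteins had 2 of 10 lower (6 with quantile normalization, and 1 without untreated replicate 1 or 3 or high light replicate 1 or 2), and AT5G24490 fell from 7482, 9837 and 8833 to 3436, 4041 and 3377 (-1.26 ± 0.14).

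Ribosome assembly genes had 9 of 30 higher (30%) and 1 lower (3.33%), against 14.9% and 29% of all probe sets, and a median of 0.16. IMP4, of the complex that processes 18S rRNA, went from 612, 399.5 and 721 to 1001, 1039 and 835 (0.77 ± 0.14, adjusted p = 9.08e-05), and AT4G28450 from 339, 341 and 388 to 554, 663 and 619 (0.78 ± 0.15). The treated arrays were above in both, as the rule for named genes required. The number higher was 5 without untreated replicate 2, the array with a high actin ratio, 6 without any 1 of the high light replicates, and 13 on median-centred arrays. Among 6 translation factors AT5G12110 alone rose, and its relative AT5G19510 was not called (0.13). Proteasome subunits had 1 of 9 higher, AT1G04810 with 0.72 ± 0.14, and 1 lower, AT1G75990, which went from 459.9, 524 and 433 to 216, 140.0 and 152 (-1.50 ± 0.16). On median-centred arrays 4 of the 9 were higher, and 2 without untreated replicate 1 or 2.

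Most cytoskeleton probe sets in the list fell. Of 12 cytoskeleton probe sets 9 fell (75%, against 29% of all probe sets) and 0 rose, with a median of -0.53. The number of falls was 5 on median-centred arrays and 5 without untreated replicate 1. The actin control probe sets, which were left out of the lists, went the other way, with ratios of mean signals of 1.51 to 1.62. TUB5, a beta-tubulin, went from 3396, 4099.8 and 4037 to 606, 668 and 592 (-2.62 ± 0.13, adjusted p = 1.68e-14), and TUB9 and TUB1 fell by 0.85 and 0.81, whereas TUA1 was not called (0.05). Of 15 histone and cell cycle probe sets 2 rose (13.3%, or 1 without untreated replicate 3) and 6 fell (40%). HTR12, the histone of centromeres, fell by 2.15 on the log2 scale.

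Class III peroxidases, secreted enzymes that act on cell walls, had 9 of 20 lower (45%) and 1 higher (5%), against 29% and 14.9% of all probe sets, and a median of -0.53; 20 of the 55 named probe sets of the family passed the filter. PRXR1 was at 24471, 24297 and 20979 untreated and 10665, 7793 and 8885 treated (-1.36 ± 0.13, adjusted p = 2.87e-09). AT2G37130 fell from 481, 670.1 and 532 to 116, 146 and 83.3 (-2.30 ± 0.33) and AT1G71695 from 3584, 2523 and 2749 to 1054, 902 and 869 (-1.64 ± 0.23). All 3 were lower on every treated array, as the rule for named genes required. The number of falls was 7 with either other scaling and 6 without high light replicate 3. Of 34 cell wall probe sets 4 rose (11.8%) and 8 fell (23.5%), shares near or below those of all probe sets, with a median of -0.25. EXPA8, an expansin that loosens walls, fell from 2739.7, 1824 and 3314 to 209, 137 and 107 (-4.12 ± 0.34), and CSLA01, a mannan synthase gene, rose from 258, 682 and 111, highest on replicate 2, to 2661, 1995 and 2038 (3.03 ± 0.58). XTH19, a xyloglucan enzyme, rose by 2.03 ± 0.42.

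Sugar carriers and starch enzymes were called in both directions, as in most lists. SWEET1, a glucose carrier, went from 315, 418 and 369 to 1889.7, 1668 and 1569 (2.22 ± 0.18), and SWEET11, which exports sucrose towards the phloem, from 3741, 2812 and 3303 to 1329, 1368 and 1165 (-1.34 ± 0.20). The vacuolar sugar importer TMT1 fell from 1326, 1359.5 and 1352 to 394, 269 and 308 (-2.07 ± 0.15). Of 11 SWEET probe sets 4 rose and 1 fell. In the list of starch and sugar metabolism 3 of 11 rose (27.3%) and 4 fell (36.4%), against 14.9% and 29% of all probe sets. The median of -0.63 was -1.12 without untreated replicate 1, -0.9998 without high light replicate 1 and -0.20 without untreated replicate 3 or high light replicate 2, where in the last case 1 rose. It turned to 0.27 with the filter at the 50th percentile, which left 7. PWD (AT5G26570), which phosphorylates starch for its breakdown, went from 3023, 2907 and 3000.4 to 964, 866 and 919 (-1.70 ± 0.12, adjusted p = 2.58e-11); the annotation gives the same name to AT4G24450, which was not called (0.37). The sucrose phosphate synthase ATSPS4F changed by -1.89 ± 0.22. The nitrate transporter family members AT2G26690 and AT3G21670 rose by 2.24 ± 0.18 and 1.52 ± 0.13.

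Ubiquitin and autophagy genes had 10 of 49 probe sets higher (20.4%) and 13 lower (26.5%), close to the 14.9% and 29% of all probe sets. PUB19, a U-box ubiquitin ligase of drought responses, had 118, 107 and 88.0 untreated and 1521, 1647 and 1546 treated (3.91 ± 0.35, adjusted p = 9.26e-10). The ATG8 genes encode the ubiquitin-like protein that coats autophagosomes, and 5 of 9 fell and 1 rose. ATG8E fell from 406, 525 and 559 to 81.1, 103 and 115 (-2.31 ± 0.39), ATG8F from 3641, 4619 and 3346 to 1639.8, 1549.7 and 1688 (-1.24 ± 0.15) and ATG8G from 291, 297 and 326 to 177, 149 and 146 (-0.95 ± 0.16). APG8A went from 634, 862 and 717 to 1218, 1237 and 1206 (0.74 ± 0.17), and ATG8B, ATG8C and ATG8H were not called. The 4 genes with values did not overlap between groups, which the rule for named genes required of ATG8E. ATG8F, ATG8G and APG8A were chosen after their values were seen, and on median-centred arrays 4 of the 9 fell, since APG8H (-0.34) was then not called (-0.19), as also without untreated replicate 1 (-0.29) or high light replicate 2 (-0.26) or 3 (-0.31).

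**Figure D4:**
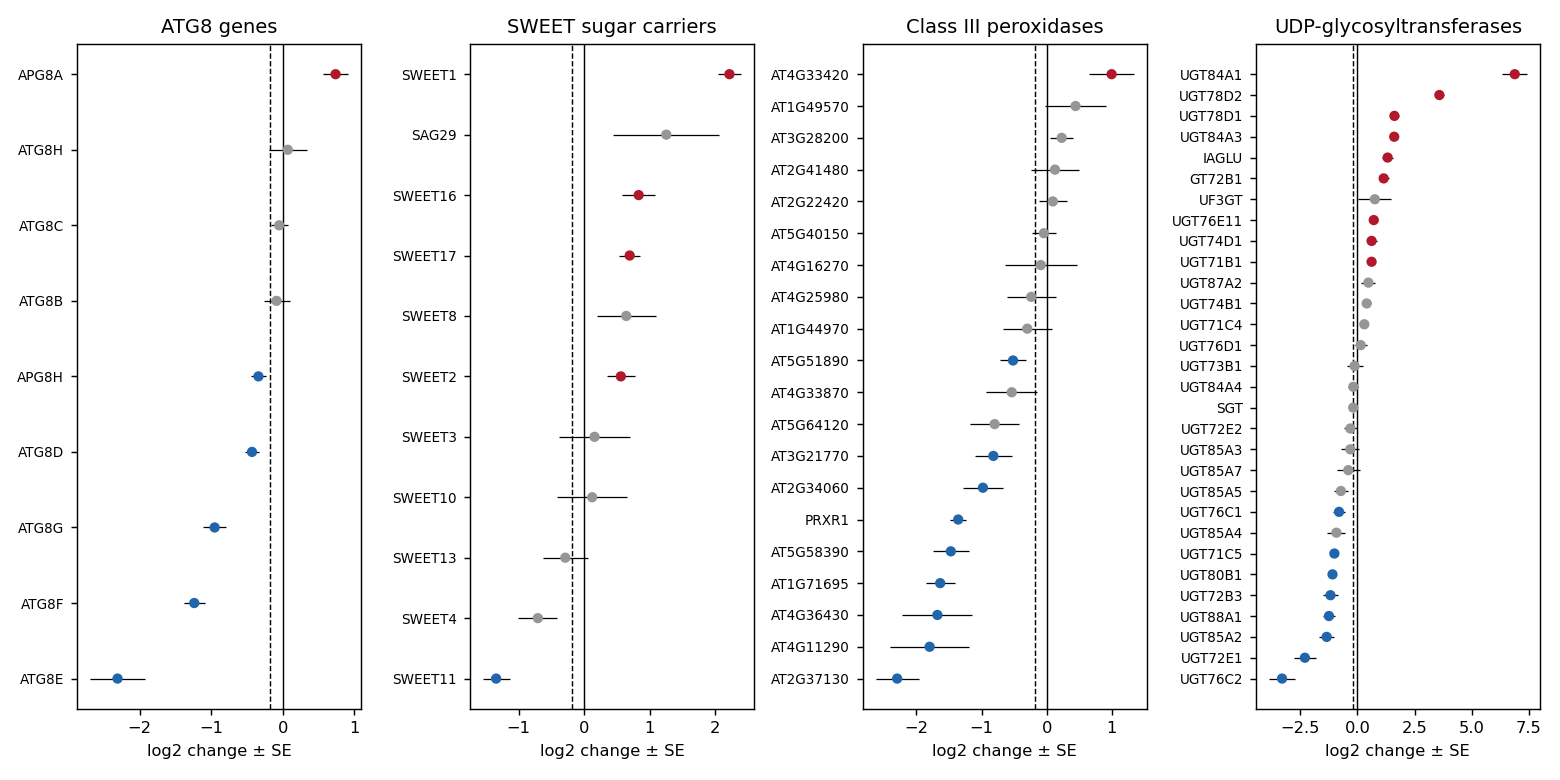
Log2 change after high light with its SE for every kept probe set of 4 families, red where called higher, blue where called lower and grey where not called; the solid line marks 0 and the dashed line the median of all probe sets, -0.18. The panels show 1 rise and 5 falls among 9 ATG8 genes, 4 and 1 among 11 SWEET carriers, 1 and 9 among 20 class III peroxidases and 9 and 8 among 30 UDP-glycosyltransferases.

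Smaller lists are given by their counts, beside which stand the 14.9% higher and 29% lower among all probe sets. Cytochrome P450 genes had 6 of 12 lower (50%) and 1 higher (median -0.57), or 2 of 8 lower with the filter at the 50th percentile, and CYP71B23 fell from 105, 325 and 251 to 81.3, 10.6 and 32.1 (-2.70 ± 0.58, adjusted p = 0.000504). Glucosinolate and myrosinase genes had 8 of 16 lower (50%) and 3 higher (18.8%), with a median of -0.47. MYB, NAC, bHLH and homeobox regulators had 4 of 10 lower (40%) and 1 higher, bHLH34 with 2.01 ± 0.24, and 1 lower on either other scaling, without untreated replicate 3, and without high light replicate 2 or 3. Receptor-like kinases and signalling peptides had 4 of 13 lower (30.8%, near the share of all probe sets) and 0 higher; CLE41, a peptide that keeps vascular stem cells dividing, went from 1586, 1251 and 1266 to 670.1, 525 and 499 (-1.28 ± 0.20). Lipid and wax genes had 2 of 6 in each direction (33.3%), among them the wax ester synthase WSD1 with 2.67 ± 0.32. Abscisic acid and dehydration genes had 2 of 8 higher (25%; 1 without untreated replicate 1 or 2 or high light replicate 3) and 1 lower (2 without untreated replicate 2). Nitrogen and sulphur assimilation had 1 of 6 higher (16.7%) and 2 lower (33.3%), OASA2 of cysteine synthesis falling by 1.14.

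The annotation used here left much of the response without a name. Of the 15922 kept probe sets 8768 name 1 gene, 323 name several and 6831 are unnamed, and 3680 of the 6995 calls are on probe sets with 1 gene. Of the 93 rises of at least 16-fold, 61 lack a single gene name. The gene lists above therefore hold only the members that were named.

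The 4 other genotypes received the same treatment on separate arrays, which share none with Col-0. Their calls were still not independent of those in Col-0. The same fit over all groups gave each probe set a shared estimate of spread, and the same filter chose the probe sets. A probe set with too small an estimate could thus be called in Col-0 and in the other genotypes together. The sign of a change in those genotypes does not depend on this estimate. Of the 1216 rises of at least 2-fold in Col-0, 1152 (94.7%) had the same sign in all 4 and 955 (78.5%) were also called there in that direction in all 4. Of the 1643 falls of at least 2-fold the numbers were 1536 (93.5%) and 1107 (67.4%). Of the 8927 probe sets not called in Col-0, 3816 (42.7%) had the same sign in all 4 and 271 (3.04%) were called in all 4 in that direction. AT5G12110 changed by 5.54, 5.23, 5.53 and 5.22 in Atwrky40, OE_WRKY40.4, Atwrky63 and OE_WRKY63.3, in that order. AT1G67360 had 3.79, 3.93, 4.10 and 3.70, HYH 5.22, 4.66, 5.10 and 5.29, PORB -1.67, -1.29, -1.25 and -1.84 and Fes1B -1.98, -2.20, -2.01 and -2.38. These were in the direction seen in Col-0 in every genotype.

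A test of the response in Col-0 against the mean response of the other 4 genotypes called 19 probe sets, 0.119% of those tested, 3 above (0.0188%) and 16 below (0.1%), and 1491 had an unadjusted p under 0.05. The 3 above do not name 1 gene. Of those below, the 5 largest that do were ZCF37, AT4G39670, AT3G01830, AT5G40690 and UBP21. AT3G01830, a calmodulin-like protein, had signals of 42.8, 229 and 63.7 untreated and 287, 339 and 471 treated in Col-0, a change of 2.05 ± 0.46 against a mean of 4.72 in the others, a difference of -2.67 ± 0.51 (limma adjusted p = 0.0378). AT4G39670 had 27.9, 232 and 65.5 and 152, 149 and 127, with 0.91 against 3.68 (adjusted p = 0.0378). Untreated replicate 2, the array with the high actin ratio, was the highest of its group in both. UBP21, a ubiquitin-specific protease, fell from 189.6, 224 and 188 to 48.9, 20.03 and 27.7 and by 2.69 in Col-0, against a mean change of -1.01 elsewhere (adjusted p = 0.0378). The test called 0 probe sets without untreated replicate 2 and 0 without high light replicate 3. It called 23 and 10 without untreated replicates 1 and 3, and 2 and 3 without high light replicates 1 and 2. Each of these fits also had 1 array fewer, and why the count changed was not tested.

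**Figure D5:**
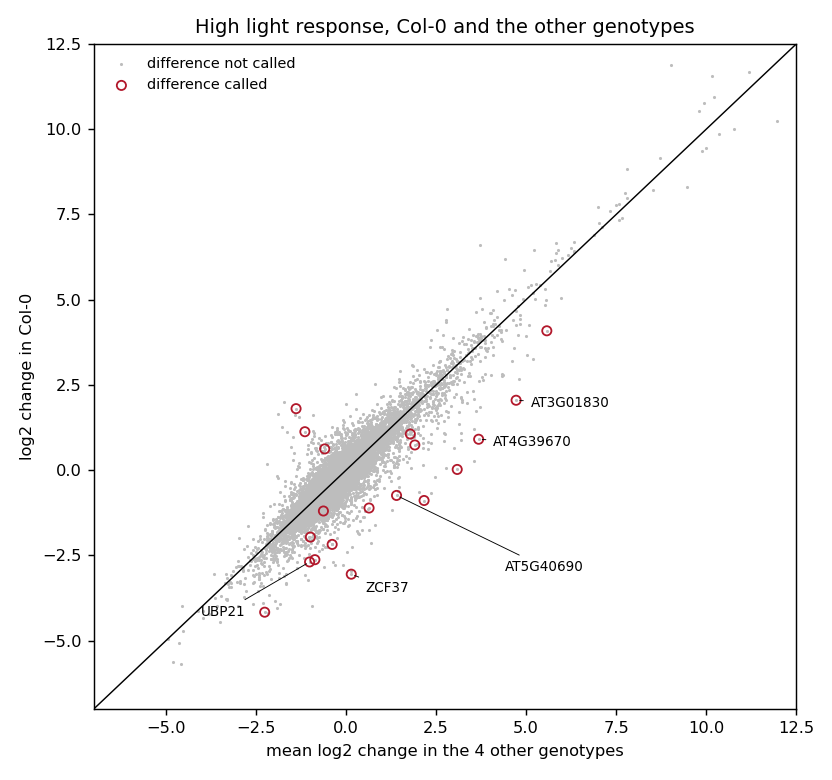
Log2 change after high light in Col-0 against the mean change in the 4 other genotypes for 15922 probe sets; the line marks equal change, and circles mark the 19 probe sets whose difference was called, of which 5 are named. Most probe sets lie near the line, and the circles below it include ZCF37 with -3.05 in Col-0 and 0.14 elsewhere.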

How the data were processed

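Leaf RNA was measured on Affymetrix ATH1 arrays. The deposited values are 1 linear intensity per probe set, made with MAS5 per the submitters' processing notes, with a version not given in the sources used here. Array names were mapped to groups through the sample titles. Control probe sets (64 of 22810) were left out, and log2 was taken of the signal plus a pseudocount of 1. A filter on the mean over 30 arrays removed probe sets under the 30th percentile, which is a signal of 46.7. Limma 3.58.1 in R 4.3.3 fitted a mean for each of the 10 groups and moderated the variances by empirical Bayes along a trend with signal. The contrasts were high light minus untreated in Col-0, and that response minus the mean response of the other 4 genotypes. Calls had a Benjamini-Hochberg adjusted p under 0.05 over all probe sets kept. The steps were tested on simulated data. No detection calls were used, and precision is limited by there being 3 arrays a group. The pseudocount shrinks the changes of dim probe sets, whose size depends on it and is the least certain. Errors after ± are SE of log2 changes.

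Genes were named from the platform annotation joined to RefSeq's TAIR10.1 gene table. The members, the 45 gene lists and the rule for named genes were chosen with earlier results of these data known, and some lists were extended after the annotation was read. The rule took, among called probe sets naming 1 gene with groups that do not overlap, the 15 largest rises and falls, the 10 largest of each in the brightest decile, and up to 3 of each per list, plus the 6 bright genes closest to the median change and up to 5 of each direction in the comparison with the other genotypes. Not every gene so named is given in the text, and those not called, with the ones said to be added, were named after their values were seen. Alternatives were quantile normalization, arrays centred on the median, a pseudocount of 16, no filter, a filter at the 50th percentile, only the arrays compared, the replicate number as a block, each Col-0 array left out, and, chosen after seeing the data, leaving out the 2 arrays with high actin ratios. Promoter sequences were not used here.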

Additional observations from a re-analysis of the deposited data

Results flagged for a closer look

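Probe sets for which the response of Col-0 differed from the mean of the other 4 genotypes by limma's test of that difference were looked at again. The differences on the log2 scale were -3.20 ± 0.59 for ZCF37 (adjusted p = 0.0378), -2.78 ± 0.52 for AT4G39670 (adjusted p = 0.0378), -2.67 ± 0.51 for AT3G01830 (adjusted p = 0.0378), -2.14 ± 0.44 for AT5G40690 (adjusted p = 0.0494) and -1.68 ± 0.30 for UBP21 (adjusted p = 0.0378). ZCF37 had 90.8, 169.9 and 424 on the untreated Col-0 arrays and 39.5, 12.7 and 20.1 after high light, with changes of -0.30, 2.19, -0.75 and -0.56 in Atwrky40, OE_WRKY40.4, Atwrky63 and OE_WRKY63.3. AT5G40690 had 63.5, 208 and 91.3 and 58.1, 57.1 and 76.5, and untreated replicate 2 was the highest array of its group for it as for AT4G39670 and AT3G01830. Without that array none of the 5 was called, with adjusted p from 0.177 for ZCF37 to 0.249 for AT5G40690. The part of RNA quality in these values was not tested.

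Control probe sets, which entered no comparison, also read higher after high light. The GAPDH 3' control read 9800.1, 12427 and 9493 untreated and 20226, 22861 and 21015 after high light, a ratio of means of 2.02. The GAPDH 5' control had means of 9258 ± 305 and 18511 ± 106 (SD, n = 3), a ratio of 2.00. The actin controls had ratios of 1.51 to 1.62 and the 5' ubiquitin control one of 1.49, each with all treated arrays above the untreated ones, and the 3' ubiquitin control one of 1.17 with overlapping groups. These ratios are on the deposited scale, and subtracting the shift of the array medians makes each of them larger.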

How the results depend on the processing

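The count of calls for high light in Col-0 stayed within 1.5 times of 6995 under every alternative, from 5799 with the filter at the 50th percentile to 7106 with the replicate block, and no named gene reversed. Leaving out 1 Col-0 array gave 5853 to 6625 calls. Of 191 named genes that were called, 33 lost the call under some setting, 31 of them when 1 array was left out. The filter at the 50th percentile kept 151 of the 191, and the dimmer ones have no result under it. The median change of all probe sets moved from -0.18 to -0.082 with quantile normalization and -0.029 on median-centred arrays, and 19 of 45 list medians changed sign under some setting. The comparison with the other genotypes called 19 probe sets, 0 to 23 when 1 array was left out, 0 with the filter at the 50th percentile and 0 without the 2 arrays with high actin ratios; the cause was not tested. Arrays of the 2 groups with the same replicate number had deviations that correlated with r of -0.0001 to 0.079, so the numbers were not taken as pairs; with the replicate block 7106 probe sets were called for high light and 17 in the comparison with the other genotypes. Without detection calls, dim signals are the least certain, with a median SE of 0.43 in the dimmest decile.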
